A study of Rattus norvegicus with 9 samples.

Results

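Otsuka Long-Evans Tokushima fatty rats gave the ileum compared here: tissue of rats that had undergone Roux-en-Y gastric bypass (RYGB) and carried the label "FDG decreased" was set against ileum of rats of the same strain after a sham operation. The comparison rests on 6 of the 9 samples of the series, 3 from each group, and on 10825 of the 17120 genes measured, those whose mean FPKM in these 6 samples was at least 1. FPKM divides the sequenced fragments of a gene by the length of its transcript and by the size of the library, so that levels of different genes can be compared. All 6 samples were total RNA of ileum taken 1 month after surgery. The FDG-decreased samples had the Roux-en-Y operation and the sham samples the sham operation. The third group of the series had the same Roux-en-Y operation and the label "FDG increased"; it is used below as the other RYGB group. The labels do not spell FDG out, and it is read here as fluorodeoxyglucose, a glucose analogue used to image sugar uptake. They give neither the age nor the sex of the rats, nor whether the replicates came from separate animals. The series as a whole asks what gastric bypass does to the small intestine.

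The Otsuka Long-Evans Tokushima fatty rat lacks a working receptor for cholecystokinin, and as a strain it tends to overeat and to become obese and diabetic. All groups used here are of this strain; weight, food intake and blood glucose of these rats are not given in the sources used here. In a Roux-en-Y bypass food leaves a small stomach pouch straight into a limb of jejunum, and bile and pancreatic juice join it further down, so that less digested food reaches the lower gut sooner. The ileum recovers bile acids through a dedicated transporter and binding protein, makes antimicrobial proteins in the Paneth cells of its crypts and releases gut hormones. Heat shock proteins are chaperones that keep other proteins folded, and their genes are switched on by heat shock factor 1 when folding is disturbed.

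No test was run between these groups. The FDG-decreased and sham libraries stand in separate deposited tables that were scaled separately, and the first was multiplied by 1.02, the mean ratio found from a pair of FDG-increased libraries present in both. A gene is called higher when all 3 FDG-decreased libraries lay above all 3 sham libraries and the means of log2(FPKM + 1) differed by at least 1, and lower in the reverse case. Differences below are on that log2 scale, FDG decreased minus sham, with the SE from the spread in both groups (n = 3 each); the scale understates differences of genes of low level. Values are given in the order of replicates 1, 2 and 3, and the numbers do not pair an RYGB sample with a sham sample.

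The libraries differed within groups about as much as between them. Over the genes compared, Pearson's r of the log2 values was 0.910 to 0.931 within the FDG-decreased group, 0.912 to 0.955 within the sham group and 0.879 to 0.967 between them. The sum of FPKM was 465697 to 845559 per library. FDG-decreased replicate 2 lay above the rest over most genes, with a median log2 value of 4.14 against 3.77 to 3.79 in the other 5 libraries. Sham replicate 1 had far lower levels of the ileal genes Fabp6 and Slc10a2 than the other libraries, given below. All sham libraries and FDG-decreased replicate 1 were sequenced in lane 7, FDG-decreased replicates 2 and 3 in lanes 4 and 5, so for these 2 libraries lane and operation cannot be told apart. The median difference over all genes was 0.13, and 7243 genes lay above 0 against 3582 below.

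In the FDG-decreased ileum 25 genes were called higher, 0.231% of those compared, and 14 were called lower, 0.129%. Heat shock proteins and their partners (Hspa1b, Dnaja1, Hsph1, Dnajb1, Bag3), the secreted proteins Reg3g, Leap2 and Spink3 and the calcium-binding protein S100g were among the higher genes. Among the lower genes were Cfd, Car3, Lpl, Cidea and Tusc5, genes of fat cells, with the clock gene Per1 and the macrophage receptor Cd163. Without the threshold on size, 368 genes lay above sham with no overlap, 3.4%, and 199 below, 1.84%. The genes nearest to the size threshold were Lgals2 at 1.01 inside and Bmx at 0.99 outside on the higher side, and C4b at -1.02 inside and Gsn at -0.98 outside on the lower side. With all libraries shifted to the same median, which moved the median over all genes from 0.13 to 0.01, the calls were 15 higher and 20 lower, and after quantile normalization 14 and 14, so the excess of higher over lower calls depends on the scaling. With fewer libraries the rule of no overlap is easier to meet. Without sham replicate 1, 93 genes were called higher, 0.859%, and 38 lower, 0.351%, among them 17 of the 25 and 13 of the 14. Without sham replicate 2 the calls were 109 higher and 34 lower, among them 24 of the 25 and 5 of the 14. In lane 7 alone, which leaves FDG-decreased replicate 1 against the 3 sham libraries, 322 were called higher and 77 lower, with 16 and 10 of these among them; 7 heat shock genes were called higher and 5 adipocyte markers lower. Without FDG-decreased replicate 2 the calls were 18 higher and 20 lower, so the excess of higher calls also rests on that library. With each of the 6 libraries left out in turn, 10 of the 39 genes stayed called every time: LOC100362172, Ffar3, Hspa1b, Reg3g, Spink3 and S100g on the higher side and Cfd, Tmem158, Car3 and Ces1f on the lower side. Of the 14 lower genes, 5 (Tmem158, Car3, Tusc5, Ces1f and Cidea) reached the mean FPKM of 1 through the sham libraries alone, and 3 of the higher genes (LOC100362172, Lgals5 and LOC100363112) through the FDG-decreased libraries alone.

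**Figure D1:**
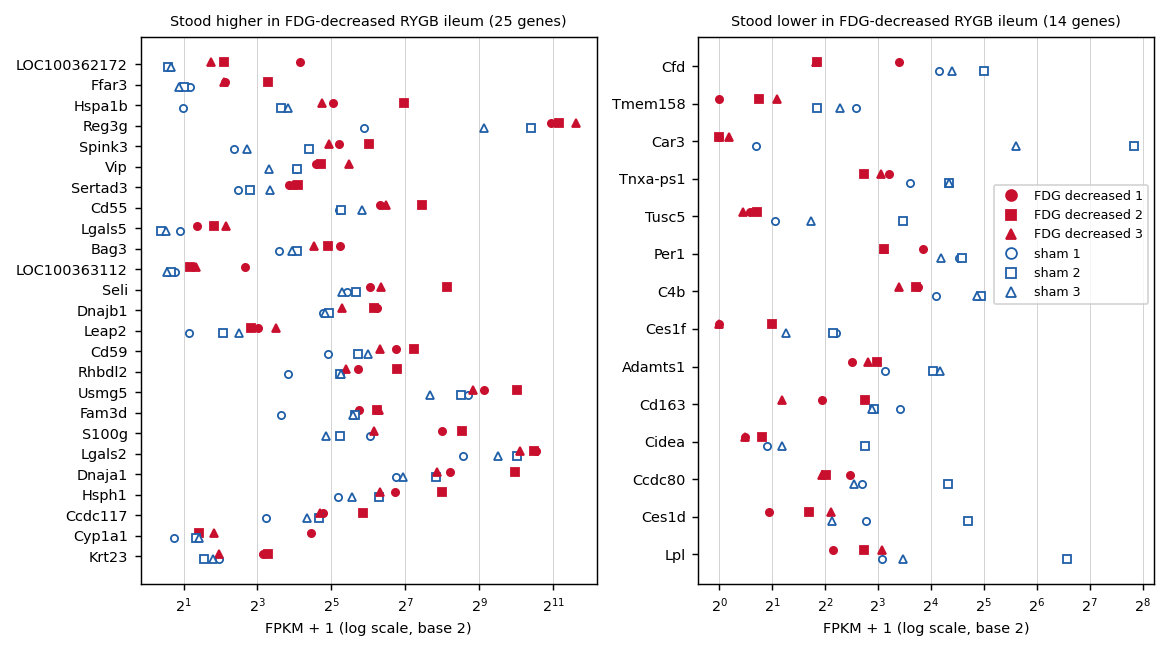
FPKM + 1 of each called gene in every library, on a base 2 log axis, with filled red marks for FDG-decreased ileum, open blue marks for sham and the shape giving the replicate. The 25 genes on the left stood higher and the 14 on the right lower in all 3 FDG-decreased libraries, and they run from the widest gap between the groups at the top to the narrowest at the bottom.

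Hspa1b, a stress-induced chaperone of the Hsp70 family, stood at 31.7, 123 and 25.8 FPKM in the FDG-decreased libraries and at 0.985, 11.5 and 13.0 FPKM in the sham libraries. The groups did not overlap, replicate 2 being the highest of the first and sham replicate 1 the lowest of the second, and the difference was 2.76 ± 1.15. Hspa1a is a near-identical copy, and reads may have been split between them; it overlapped between the groups (246, 2.32 and 38.3 FPKM against 3.63, 11.0 and 37.3 FPKM). Dnaja1, a co-chaperone that hands unfolded proteins to the Hsp70 family, had 294, 991 and 232 FPKM against 107, 225 and 122 FPKM. Its lowest FDG-decreased library lay only just above the highest sham library, and the difference was 1.50 ± 0.72. Hsph1, a nucleotide exchange factor of the same machine, was measured at 105, 252 and 79.3 FPKM against 35.1, 77.5 and 46.4 FPKM, again with a narrow gap and a difference of 1.33 ± 0.60. Dnajb1, a co-chaperone of disaggregation, stood at 74.5, 70.3 and 38.1 FPKM against a tight 26.2, 29.8 and 27.3 FPKM in sham. Here the gap was wider and the difference 1.05 ± 0.31. Bag3, which links these chaperones to autophagy, reached 36.4, 29.1 and 22.0 FPKM against 11.0, 15.9 and 14.4 FPKM, a difference of 1.02 ± 0.25.

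The 5 genes are the called members of a list of 12 heat shock genes, all 12 compared, of which 11 stood higher and 0 were called lower. The median of the list was 1.04 beside 0.13 over all genes. Cryab, a small heat shock protein, was the member that did not stand higher, with 11.9, 10.9 and 11.3 FPKM against 7.57, 18.9 and 12.0 FPKM. Hspa8, a constitutive chaperone, overlapped between the groups and had 2308, 4067 and 1392 FPKM against 1004, 1645 and 1202 FPKM. With sham replicate 1 left out the list's median was 0.81 and 4 members were called. Bag3 was the member lost, at 0.87. With libraries shifted to the same median it was 0.92 with 3 called, Dnajb1 and Bag3 falling to 0.93 and 0.90, and after quantile normalization 1 was called. The number called was also 3 without FDG-decreased replicate 1 and 3 without FDG-decreased replicate 2, the library of highest overall level. In the latter case the 3 were Hspa1b, Bag3 and Hspa1a. With all libraries Hspa1a was not called, because its value in FDG-decreased replicate 2 lay below sham. Without FDG-decreased replicate 2 the difference was 0.86 for Dnaja1, 0.85 for Hsph1 and 0.92 for Dnajb1, and without FDG-decreased replicate 1 it was 0.88 for Dnajb1 and 0.85 for Bag3, all below the threshold. Hspa1b was called with each library left out.

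The promoters of these genes are printed because the members stood higher together. RefSeq's promoter table (build GRCr8) holds 9 of the 12 genes, 4 of them called; Hspa1b, Hsp90aa1 and Cryab are not in it. The 200 bases before the annotated start of the 4 called genes read as follows, 5′ to 3′ on the gene's strand, with capitals for the heat shock element core in its short form, GAANNTTC or TTCNNGAA. Hsph1 lies at chr12:10427168-10427367 on the plus strand, Dnajb1 at chr19:41431142-41431341 on the minus strand, Bag3 at chr1:192533260-192533459 on the plus strand and Dnaja1 at chr5:60638204-60638403 on the plus strand.
Hsph1: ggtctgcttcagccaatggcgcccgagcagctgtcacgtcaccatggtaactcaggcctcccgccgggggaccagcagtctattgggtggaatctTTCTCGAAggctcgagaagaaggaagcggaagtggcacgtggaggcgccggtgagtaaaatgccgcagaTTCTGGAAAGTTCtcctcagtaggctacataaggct
Dnajb1: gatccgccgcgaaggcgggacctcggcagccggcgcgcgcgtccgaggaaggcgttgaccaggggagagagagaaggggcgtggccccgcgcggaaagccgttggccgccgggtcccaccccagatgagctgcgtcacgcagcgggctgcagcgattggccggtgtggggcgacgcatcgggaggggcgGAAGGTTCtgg
Bag3: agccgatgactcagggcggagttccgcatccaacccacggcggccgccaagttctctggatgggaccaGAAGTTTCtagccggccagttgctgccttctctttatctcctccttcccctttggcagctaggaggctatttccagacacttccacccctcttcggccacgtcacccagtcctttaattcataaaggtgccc
Dnaja1: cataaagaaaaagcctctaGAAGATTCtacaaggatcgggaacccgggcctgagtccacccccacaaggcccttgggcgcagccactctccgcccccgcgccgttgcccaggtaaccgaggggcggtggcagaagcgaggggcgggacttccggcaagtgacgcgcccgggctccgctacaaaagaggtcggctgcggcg
The short form, 2 units of 3 bases in opposite orientation, reads the same on both strands. It was found in the 300-base windows (250 bases before to 50 after the start) of 8 of the 9 genes, beside 15.9% of 33469 promoters in the table. The longer form of 3 units, GAANNTTCNNGAA or its reverse complement TTCNNGAANNTTC, contains the short form and was found in 5 of the 9, beside 0.798% of all promoters. Hsph1 carries it 36 bases before the start, where the 2 overlapping short forms run together in capitals. Dnaja1 carries it 10 bases after the start, outside the stretch printed. Dnajb1 has a short form 11 bases before the start and another 18 after it, and Bag3 has 1 at 132 bases before. Of the members with a promoter, the longer form was found in 3 of 5 not called and in 2 of 4 called. The matches in Hspd1 and Hspe1, both not called, are reverse complements of each other and may be 1 shared stretch. If so, these counts hold it for both genes. A match is a run of letters, and binding was not measured. The promoter sequences do not depend on these samples, so the shares describe the listed genes and not a difference between the groups.

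Among the other called genes were Reg3g, Leap2, Spink3, Cd55 and Cd59, placed side by side here after the calls were seen and not a list of their own. Reg3g, a secreted lectin that kills Gram-positive bacteria, stood at 1971, 2263 and 3129 FPKM against 57.7, 1344 and 556 FPKM. Sham replicate 1 lay far below its group, and the difference of 2.77 ± 1.36 was 1.48 without it. The related Reg3b overlapped, with 705, 1629 and 2829 FPKM against 234, 1916 and 566 FPKM. Leap2, a liver and gut peptide that blocks the ghrelin receptor and has antimicrobial activity, had 7.06, 6.08 and 10.2 FPKM against 1.20, 3.15 and 4.69 FPKM (difference 1.21 ± 0.45). Spink3, a trypsin inhibitor with near-identical copies in the rat, was at 35.8, 64.1 and 29.3 FPKM against 4.15, 19.8 and 5.63 FPKM, a difference of 2.22 ± 0.70. Cd55 and Cd59, which shield cells from complement, were both called. Cd55 had 78.7, 175 and 88.1 FPKM against 35.9, 37.4 and 55.4 FPKM, and Cd59 106, 150.2 and 78.1 FPKM against 29.3, 52.0 and 62.6 FPKM. Without sham replicate 1 Leap2 fell to 0.83 and Cd59 to 0.90, and without FDG-decreased replicate 2 Cd55 and Cd59 both fell to 0.97, below the threshold.

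All 13 Paneth cell and antimicrobial genes compared, of 26 listed, stood higher, but Reg3g alone was called, and the list's median of 0.66 fell to 0.36 without sham replicate 1. Their most abundant members, the alpha-defensins that Paneth cells store, overlapped: Defa24 had 9454, 15432 and 8526 FPKM against 3829.9, 9228 and 8664 FPKM. Of 10 goblet cell genes 9 stood higher (median 0.72, 0 called), with Zg16, a mucus lectin, at 1674, 2230.0 and 1378 FPKM against 2058, 1111 and 694 FPKM and Clca1, a mucus protease, at 1104, 2822 and 1513 FPKM against 1237, 1321 and 607 FPKM. Of 11 tuft cell genes 10 stood higher (median 0.65, 0 called). Of these 11, Chat reached the mean FPKM of 1 through the FDG-decreased libraries alone, which tied its direction to the filter. Dclk1, a marker of these chemosensory cells, stood at 7.39, 34.2 and 9.85 FPKM against 4.46, 13.6 and 9.21 FPKM. Ptgs1, an enzyme of prostaglandin synthesis, had 12.0, 24.8 and 10.3 FPKM against 13.2, 13.3 and 18.2 FPKM. Beside these counts, 7243 of all 10825 genes compared stood higher. Stem cell and Wnt target genes (median 0.02 over 14) and cell cycle genes (median 0.02 over 28) had 0 called in either direction. In bulk tissue, more cells of a type and more RNA per cell cannot be told apart.

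Other called genes belong to absorption, sensing and signalling. S100g, the cytosolic calcium carrier of the absorptive cell and a target of vitamin D, stood at 255, 372 and 70.6 FPKM against 65.4, 36.4 and 27.8 FPKM. Replicate 3 was just above the highest sham library, and the difference was 2.19 ± 0.80. Of the 15 calcium, iron and zinc genes compared it was the one called, and the vitamin D receptor Vdr overlapped, with 123, 107 and 60.4 FPKM against 119, 91.0 and 101 FPKM. Ffar3, a receptor for short-chain fatty acids, was low in both groups but separated, at 3.38, 8.75 and 3.29 FPKM against 1.24, 1.02 and 0.839 FPKM (difference 1.49 ± 0.40). Vip, a neuropeptide of the gut's secretomotor neurons, had 23.0, 25.4 and 43.6 FPKM against 15.4, 15.8 and 8.91 FPKM (difference 1.12 ± 0.37). Vip fell to 0.85 without FDG-decreased replicate 3 and to 0.88 without sham replicate 3, below the threshold.

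Vip went against the list it belongs to. Of 14 genes of enteric neurons and glia 13 stood lower, with a median of -0.28, and Vip was the exception. Of the 13, 3 (Syp, Tubb3 and Ncam1) lay below sham with no overlap but differed by less than 1. Over all genes, 1.84% lay below sham with no overlap. The count was not particular to this list, since 3 of the 14 stem cell and Wnt target genes also lay below sham with no overlap. Sertad3, a transcriptional cofactor, had 13.3, 16.0 and 14.6 FPKM against 4.51, 5.95 and 9.04 FPKM. Seli (now Selenoi), which makes ethanolamine phospholipids, had 64.9, 277 and 79.5 FPKM against 41.9, 49.9 and 37.9 FPKM, with replicate 2 far above the rest. Lgals5, a rat galectin, stood at 1.57, 2.54 and 3.43 FPKM against 0.880, 0.317 and 0.449 FPKM. The uncharacterised LOC100362172 had the widest gap of all, at 16.6, 3.25 and 2.34 FPKM against 0.480, 0.496 and 0.575 FPKM, and LOC100363112 stood at 5.29, 1.24 and 1.52 FPKM against 0.718, 0.574 and 0.462 FPKM; in both, replicate 1 was the highest. The 10 higher genes not covered by the naming rule, Rhbdl2, Usmg5 (now Atp5mk), Fam3d, S100g, Lgals2, Dnaja1, Hsph1, Ccdc117, Cyp1a1 and Krt23, had gaps of at most 0.16 between the nearest libraries; S100g, Dnaja1 and Hsph1 were named above as called members of their lists. Cyp1a1, a drug-metabolising enzyme of its list of 23, differed by 1.40 ± 0.98, mainly through replicate 1 (21.0, 1.67 and 2.52 FPKM against 0.671, 1.52 and 1.66 FPKM). Leaving out 1 library ended the call of Seli (0.73 without FDG-decreased replicate 2), LOC100363112 and Cyp1a1 (0.59 and 0.46 without FDG-decreased replicate 1), Lgals5 (0.98 without FDG-decreased replicate 3) and Sertad3 (0.90 without sham replicate 1). Fam3d fell to 0.47 without sham replicate 1, and Rhbdl2, Usmg5, Lgals2, Ccdc117 and Krt23 each lost the call without at least 1 library.

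**Figure D2:**
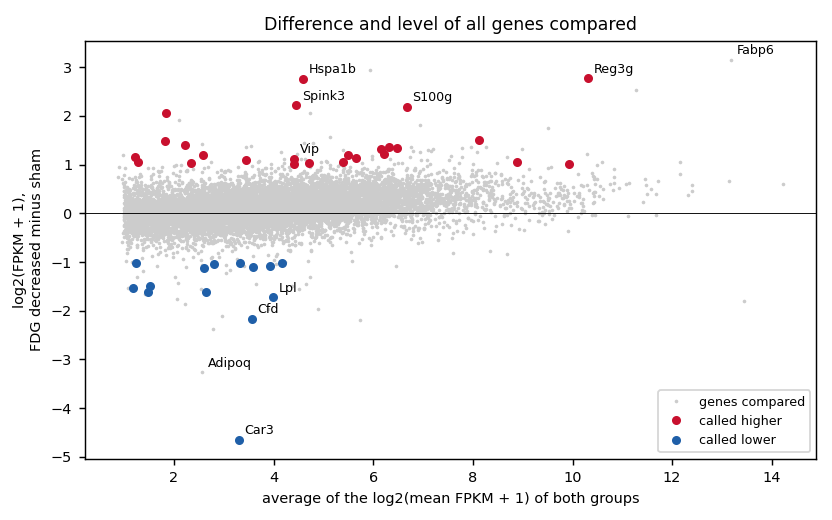
Difference between FDG-decreased and sham ileum on the log2(FPKM + 1) scale against the level of each of the 10825 genes compared, with called genes in red (higher) and blue (lower). Fabp6 and Adipoq had large differences but were not called, because libraries of the 2 groups overlapped.

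Several genes of fat cells were called lower. Cfd, the adipocyte-secreted protease adipsin of the complement pathway, was at 9.50, 2.60 and 2.58 FPKM against 16.8, 31.3 and 20.0 FPKM, a difference of -2.16 ± 0.58 and the widest gap among lower genes. Car3, a carbonic anhydrase abundant in fat and muscle, was listed at 0 in FDG-decreased replicates 1 and 2 and at 0.14 FPKM in replicate 3, against 0.613, 227 and 47.8 FPKM in sham. Sham replicate 1 was close to the FDG-decreased libraries, while replicates 2 and 3 carried the difference. Lpl, the lipase that frees fatty acids for uptake into fat and muscle, had 3.44, 5.72 and 7.41 FPKM against 7.44, 94.5 and 10.2 FPKM, the nearest libraries being almost equal. Cidea, of lipid droplets, was at 0.396, 0.758 and 0.404 FPKM against 0.880, 5.80 and 1.27 FPKM. Tusc5 (now Trarg1), which serves the trafficking of the insulin-sensitive glucose transporter in fat cells, had 0.509, 0.641 and 0.369 FPKM against 1.08, 10.1 and 2.33 FPKM. Without sham replicate 2 the difference was -0.62 for Lpl, -0.45 for Cidea and -0.81 for Tusc5, below the threshold, and without FDG-decreased replicate 1 or 3 it was -0.97 for Cidea. Cfd and Car3 were called with each library left out.

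Of 14 adipocyte markers listed 11 were compared, and 4 were called (Cfd, Car3, Lpl, Cidea). Adipoq, Plin1, Cidea, Lep and Car3 reached the mean FPKM of 1 through the sham libraries alone, so these 5 had to stand lower, and counts over the 11 describe these libraries only. Of the other 6, which did not depend on sham for this, Cfd and Lpl were called, Cidec lay below sham with no overlap at -0.97, Fabp4 and Lipe overlapped at -1.08 and -0.46, and Pparg differed by 0.00. Adipoq, the fat cell hormone adiponectin, was not called, since sham replicate 1 fell among the FDG-decreased libraries (0, 0.211 and 0.293 FPKM against 0.136, 71.3 and 15.7 FPKM). The summed FPKM of the 11 markers was 76.7, 91.5 and 69.7 in the FDG-decreased libraries and 91.8, 828 and 228 in the sham libraries, so that sham replicate 2 alone held most of the fat cell signal. Without sham replicate 1, 8 of the 11 were called lower, beside 0.351% of all genes. The 8 included the 5 that had to stand lower, and the others were Cfd, Lpl and Fabp4. Without sham replicate 2, Cfd and Car3 were called, beside 34 of all 10825 genes. The amount of fat on each piece of tissue is not given in the sources used here. Its part in these differences was not tested. Smooth muscle markers had a median of -0.09 over 16 genes with 0 called, with Myh11, the smooth muscle myosin, at 112, 91.6 and 153 FPKM against 172, 92.7 and 124 FPKM and Tagln, an actin-binding protein, at 377, 289.7 and 416 FPKM against 302, 223 and 315 FPKM. Prss1, a pancreatic enzyme, was listed at 0 in all 6 libraries.

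The other lower genes had several functions. Per1, a repressor of the circadian clock, had 13.4, 7.68 and 7.71 FPKM against 22.2, 23.0 and 17.2 FPKM (difference -1.07 ± 0.27), and it was the member called of 14 clock genes, whose median was 0.13. Its partner Per2 overlapped, with 31.0, 43.0 and 10.7 FPKM against 18.0, 38.6 and 43.2 FPKM. The hour at which tissue was taken is not given in the sources used here. Cd163, the haemoglobin scavenger receptor of resident macrophages, was at 2.83, 5.75 and 1.28 FPKM against 9.66, 6.60 and 6.43 FPKM, and of 17 macrophage and dendritic cell genes no other was called (median -0.03). Adamts1, a matrix protease, had 4.69, 6.90 and 6.06 FPKM against 7.84, 15.6 and 17.1 FPKM, and Ccdc80, a matrix protein abundant in fat, 4.53, 3.06 and 2.84 FPKM against 5.50, 19.1 and 4.82 FPKM. Tmem158, a membrane protein induced by Ras signalling, stood at 0, 0.689 and 1.14 FPKM against 5.01, 2.61 and 3.88 FPKM. C4b and the pseudogene Tnxa-ps1, neighbours with near-identical copies, differed by -1.02 ± 0.30 and -1.10 ± 0.28. Ces1f and Ces1d, carboxylesterases of 1 family of similar sequence, differed by -1.54 ± 0.45 and -1.62 ± 0.84. Values of such copies are uncertain. Without FDG-decreased replicate 3 Cd163 stood at -0.73 and Per1 at -0.95, and without sham replicate 2 Ccdc80 stood at -0.48 and Ces1d at -0.87, above the threshold of -1. Adamts1, C4b and Tnxa-ps1, each close to the threshold, also lost the call with 1 library left out, whereas Tmem158 and Ces1f kept it each time.

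**Figure D3:**
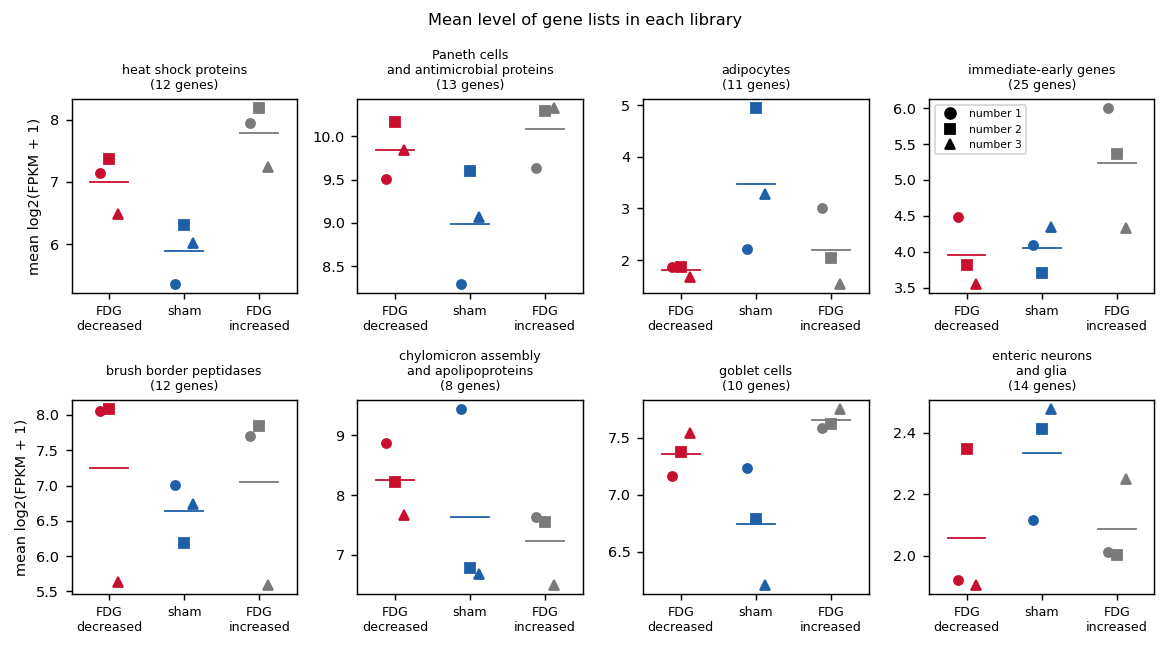
Mean log2(FPKM + 1) of 8 gene lists in each library of the 3 groups, with marks for replicates and a line at the mean of the group; values of FDG-increased libraries are those of the RYGB table on the same scale. Heat shock means of the FDG-decreased libraries (6.49 to 7.38) all lay above the sham means (5.36 to 6.30), and immediate-early means overlapped. Adipocyte means of the FDG-decreased libraries lay below the sham means. Of the 11 adipocyte genes, 5 passed the filter through sham alone and had to stand lower.

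Ileal identity was checked with the bile acid genes. Fabp6, the bile acid binding protein of the ileal enterocyte, stood at 15842, 18143 and 5516 FPKM in the FDG-decreased libraries and at 22.6, 8375 and 11347 FPKM in sham. Slc10a2, the bile acid uptake transporter, had 88.4, 594 and 23.7 FPKM against 2.60, 67.3 and 119.9 FPKM, and Slc51a, a subunit of the exporter to the blood, 506, 814 and 164 FPKM against 150.3, 221 and 357 FPKM. Sham replicate 1 was the lowest library for all 3 genes, far below the rest for Fabp6 and Slc10a2, while its Slc51a lay close to that of FDG-decreased replicate 3. Of 10 bile acid genes 9 stood higher with 0 called. The median of 0.54 fell to 0.28 without sham replicate 1, when Fabp6 differed by 0.26 instead of 3.16.

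Markers of the upper intestine were highest in sham replicate 1. Lct, the lactase, was at 8.58, 4.45 and 1.42 FPKM against 253, 8.60 and 0.317 FPKM, and Gip, the upper gut hormone, at 4.24, 7.04 and 13.2 FPKM against 81.2, 10.7 and 3.70 FPKM. Gata4, the transcription factor of the jejunum, had 6.29, 1.03 and 27.0 FPKM against 59.8, 9.82 and 0.085 FPKM. Among the FDG-decreased libraries the highest was replicate 1 for Lct and replicate 3, which had the lowest Fabp6 of its group, for Gip and Gata4. The position of each piece along the ileum is not given in the sources used here; position and operation cannot be told apart in these libraries. Vil1, the villin of all enterocyte brush borders, overlapped (671, 535 and 327 FPKM against 793, 289.9 and 429 FPKM).

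**Figure D4:**
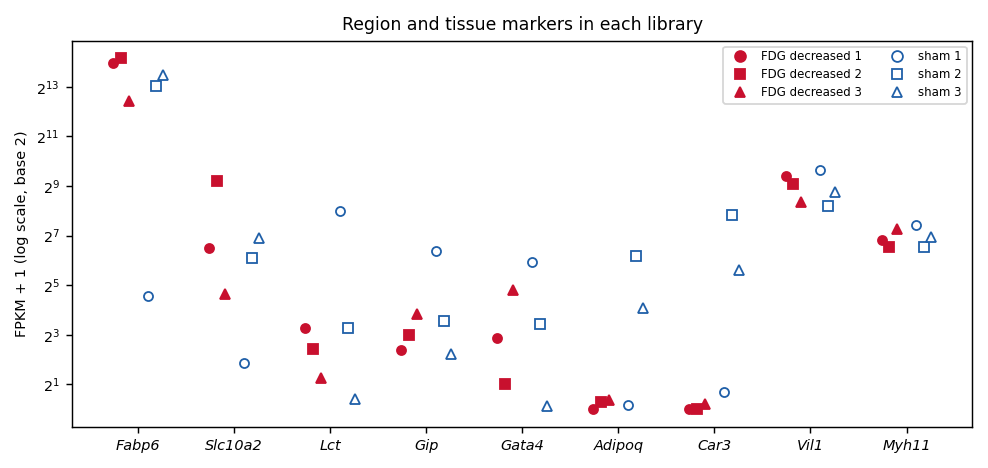
FPKM + 1 of markers of ileum (Fabp6, Slc10a2), upper intestine (Lct, Gip, Gata4), fat (Adipoq, Car3), enterocytes (Vil1) and smooth muscle (Myh11) in each library, on a base 2 log axis. Sham replicate 1 is lowest for Fabp6 and Slc10a2 and highest for Lct, Gip and Gata4, and sham replicates 2 and 3 are highest for Adipoq and Car3.

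Genes of fat absorption overlapped with sham as a whole, and several stood apart from sham replicates 2 and 3 alone. Fabp1, which carries fatty acids through the enterocyte, had 7933, 6215 and 3532 FPKM in the FDG-decreased libraries against 10308, 2220.4 and 2308 FPKM in sham. It differed by 0.57 ± 0.81 with all sham libraries and by 1.30 without sham replicate 1. Fabp2, its intestinal counterpart, had 7773, 9465 and 3048 FPKM against 4424, 2661 and 2119 FPKM and differed by 1.06 ± 0.59 and by 1.35. Apoa1, the chief protein of intestinal high-density lipoprotein, had 7129, 2628 and 904 FPKM against 4805, 720.2 and 1115 FPKM, and Apob, the scaffold of the chylomicron, 940.4, 2259.8 and 347 FPKM against 726, 328 and 420.0 FPKM. Of 8 chylomicron and apolipoprotein genes 7 stood higher with 0 called and a median of 0.70. Without sham replicate 1 that median was 1.41 and 3 were called higher, beside 0.859% of all genes. These were Apoc2 at 2.18, the transcription factor Creb3l3 at 1.68 and the lipid loading protein Mttp at 1.31.

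The same change of the sham set moved other absorption lists. Fatty acid uptake and triglyceride genes went from a median of 0.16 with 0 called to 0.80 with 5 of 19 called higher and 1 lower. Without sham replicate 1, 0.859% of all genes were called higher and 0.351% lower. The lower gene, Thrsp, reached the mean FPKM of 1 through the sham libraries alone, which tied its direction to the filter. Sugar digestion and absorption genes went from 0.34 to 0.92, and the upper intestine list from 0.10 to 0.66. Rbp2, the retinol carrier of the absorptive cell, stood at 1368, 838 and 1441 FPKM against 3905, 329 and 228 FPKM. Its difference was 0.83 with all sham libraries and 2.11 without replicate 1. Rbp2, Apoc2, Creb3l3 and Mttp were singled out after their values were seen. Brush border peptidases stood higher for 11 of 12 genes (median 0.58, 0 called), beside 7243 of 10825 over all genes. Of the 12, Tmprss15 reached the mean FPKM of 1 through the FDG-decreased libraries alone, which tied its direction to the filter. Anpep, an aminopeptidase, stood at 1813, 1242 and 316 FPKM against 1012, 287 and 682 FPKM. Naaladl1 stood at 1283, 1434 and 185 FPKM against 361, 422 and 927 FPKM. FDG-decreased replicate 3 was the lowest of its group in both, below all sham libraries for Naaladl1.

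**Figure D5:**
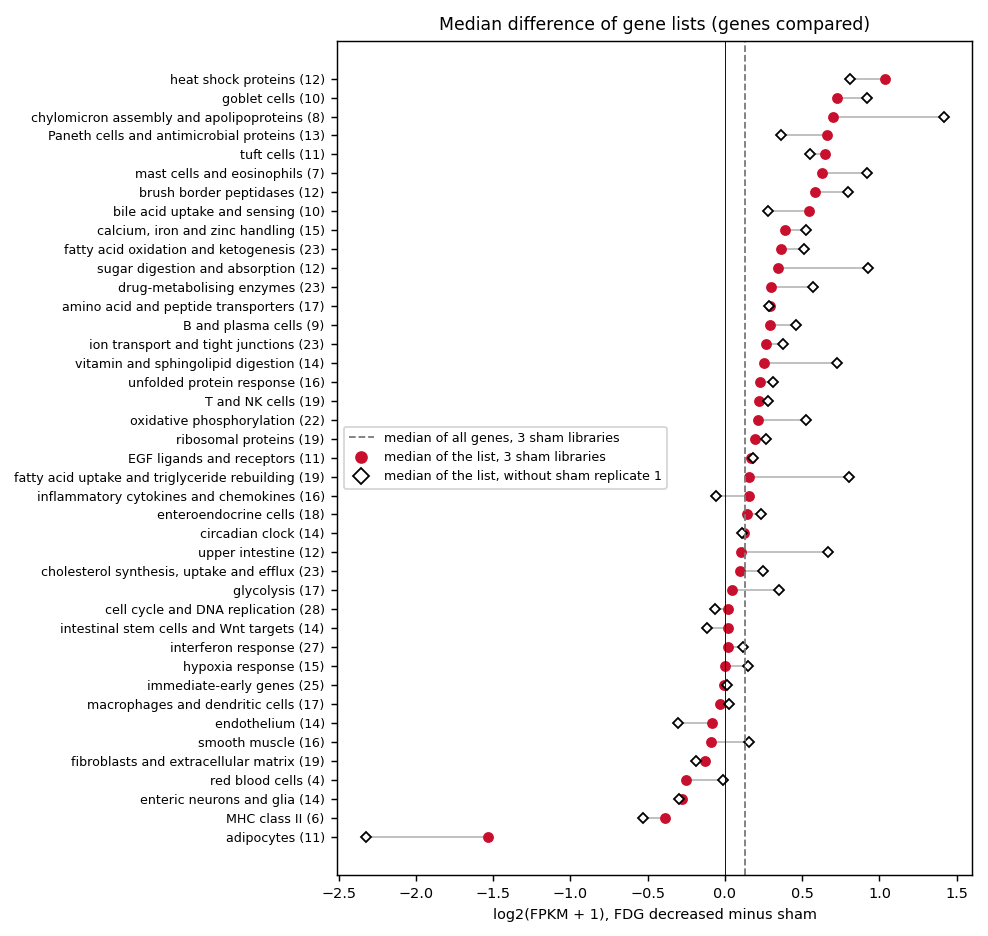
Median log2 difference, FDG decreased minus sham, of each of the 41 gene lists with at least 4 genes compared, with all 3 sham libraries (red) and without sham replicate 1 (open diamonds); the dashed line is the median of all genes, 0.13. The heat shock list is highest with all sham libraries, chylomicron genes move from 0.70 to 1.41 without sham replicate 1, and the adipocyte list, 5 of whose 11 members passed the filter through sham alone, is lowest either way.

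FDG-decreased replicate 3 also stood apart in immune genes. Cd74, the chaperone of MHC class II molecules, had 1469, 1215 and 123 FPKM against 595, 403 and 1958 FPKM, and RT1-Da, an MHC class II chain, 367, 393 and 39.3 FPKM against 164, 106 and 429 FPKM. All 6 MHC class II genes compared stood lower on average (median -0.39, 0 called), while FDG-decreased replicates 1 and 2 fell within the range of sham for both of these genes. Of 42 lists, 34 had 0 members called in either direction.

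Immediate-early genes, which respond within minutes to growth factors and to handling of tissue, had 0 members called between FDG-decreased and sham ileum with all libraries. Fos, which pairs with Jun proteins on DNA, stood at 35.2, 12.7 and 11.2 FPKM against 57.3, 16.0 and 28.9 FPKM. Egr1, a zinc finger factor, had 20.4, 11.4 and 3.79 FPKM against 6.81, 10.5 and 12.4 FPKM, and Atf3, a stress-induced repressor, 9.02, 5.58 and 2.83 FPKM against 9.60, 3.81 and 7.69 FPKM. The more abundant Klf6, a zinc finger factor, had 81.7, 256 and 77.9 FPKM against 75.1, 78.6 and 76.9 FPKM. Jund, a Jun protein, had 159.9, 37.3 and 70.9 FPKM against 172, 40.9 and 123 FPKM. Libraries of both groups overlapped for Fos, Egr1, Atf3, Klf6 and Jund. Of 25 members compared 12 stood higher and 0 were called, and the median was -0.01. Fosb reached the mean FPKM of 1 through the sham libraries alone, which tied its direction to the filter. Without sham replicate 1, Nr4a1, a nuclear receptor, and Dusp1, a phosphatase of MAP kinases, were called lower, at -1.07 and -1.03. Of all genes, 0.351% were called lower in that setting.

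The other RYGB group was set beside these values within the RYGB table, whose libraries were scaled together and where a test was run. Limma with Benjamini-Hochberg adjustment called 0 of 10739 genes (0%) between FDG-decreased and FDG-increased ileum without a block, and 110 had an unadjusted p under 0.05. With the replicate number as a block, since same-numbered RYGB libraries were alike (r of 0.977 to 0.982 over the genes compared with sham), 122 genes were called, 48 higher in FDG-decreased ileum (0.447%) and 74 lower (0.689%). Both comparisons use the same FDG-decreased libraries and are not independent. There were 39 calls without number 1, 370 without number 2 and 345 without number 3, so the count depends on each pair.

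In this blocked test 14 of the 27 immediate-early genes kept in the RYGB table were lower in FDG-decreased than in FDG-increased ileum and 0 were higher; the count was 4 without number 1, 14 without number 2 and 22 without number 3. Egr1 stood at 93.4, 37.1 and 19.1 FPKM in the FDG-increased libraries. Its blocked limma log2 difference was -1.94 ± 0.15 (SE, n = 3 equal numbers taken as pairs, adjusted p = 0.000318). The labels do not state this pairing, and without the block the SE was 0.70 and Egr1 was not called. Atf3 stood at 149.7, 95.1 and 24.9 FPKM in the FDG-increased libraries, a blocked difference of -3.51 ± 0.23 (limma adjusted p = 0.000366). Fos, at 319.7, 89.3 and 30.9 FPKM, differed by -2.42 ± 0.35 and was not called (limma adjusted p = 0.0720).

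Heat shock genes were lower than in FDG-increased ileum as well. Hspa1b was at 109, 204 and 82.0 FPKM in the FDG-increased libraries, on the same scale as above. FDG-decreased minus FDG-increased was -1.37 ± 0.20 (limma with the block, adjusted p = 0.0141), beside 2.76 for FDG-decreased minus sham. Bag3, at 64.2, 45.6 and 41.2 FPKM, differed from FDG-increased ileum by -0.77 ± 0.14 (limma adjusted p = 0.0252), and Dnajb1, at 127, 120.1 and 53.7 FPKM, by -0.67 ± 0.13 (limma adjusted p = 0.0439). Hspb1 and Cryab were called lower as well, so that 5 of the 12 members were; the count was 0 without number 1, 9 without number 2 and 5 without number 3. Hsph1 (151, 227 and 126 FPKM) and Dnaja1 (409, 1102 and 423 FPKM) were not called (limma adjusted p = 0.601 and 0.247).

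Of the remaining genes called against sham, Reg3g stood at 3785, 3825 and 6515 FPKM in FDG-increased ileum, and the difference of FDG-decreased ileum from it was -0.92 ± 0.14 (limma with the block, adjusted p = 0.0104). Spink3, at 59.1, 103 and 45.7 FPKM, and Fam3d, a gut-secreted protein, at 104, 102 and 135 FPKM, were lower in FDG-decreased ileum, with differences of -0.67 ± 0.13 and -0.74 ± 0.14 (limma adjusted p = 0.0382 and 0.0373). Vip was the called gene that went the other way, at 8.26, 12.9 and 30.9 FPKM in FDG-increased ileum and higher in FDG-decreased ileum by 0.93 ± 0.18 (limma adjusted p = 0.0373). S100g, at 413, 527 and 86.1 FPKM, did not pass the test (-0.49 ± 0.14, limma adjusted p = 0.167). Cfd, at 20.1, 5.95 and 1.48 FPKM, and Per1, at 22.5, 14.0 and 5.54 FPKM, did not pass it either (limma adjusted p = 0.759 and 0.760).

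Of 12 upper intestine markers tested within the RYGB table, Gip and Lct passed with the block and 0 passed without it. With the block Gip was higher in FDG-decreased than in FDG-increased ileum by 2.10 ± 0.16 (limma adjusted p = 0.000318) and Lct by 1.80 ± 0.27 (limma adjusted p = 0.0190). The FDG-increased libraries had 0.204, 0.906 and 2.21 FPKM of Gip and 0.532, 0.698 and 0.130 FPKM of Lct. Gata4, at 0, 0.042 and 0.603 FPKM there, did not pass (2.63 ± 0.74, limma adjusted p = 0.463). Fabp6, at 18938, 22985 and 7374 FPKM, did not pass the test (-0.34 ± 0.14, limma adjusted p = 0.437). The part of position along the gut in the differences between the RYGB groups was not tested.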

How the data were processed

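Total RNA of ileum was sequenced for 9 samples, 3 in each group; groups were taken from the titles. Per the labels' protocols, tissue was frozen on dry ice and libraries came from a stranded kit that removes ribosomal RNA. The authors deposited FPKM per gene in 2 tables of 17145 rows, each scaled on its own; per the submitters' processing notes they used bcl2fastq 1.8.4, STAR 2.6.0a, Cufflinks 2.2.1, Cuffdiff and DESeq2 1.24.0, with hg19 listed although the symbols are those of rat. The settings are not given in the sources used here, so no coordinates come from the files. FPKM carries no counts, so depth and counting error are unknown.

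From these values, 25 rows with dates in place of symbols were dropped, and genes were kept where the mean FPKM reached 1. The FDG-decreased columns were multiplied by 1.02, from 2 FDG-increased libraries found in both tables with ratios of 1.023 and 1.0204. Together the tables hold 10 libraries, of which 4 are FDG-increased, whereas the labels list 3 of these; which 1 is extra is unsettled. Every column with a sample or group was assigned, with 0 left over. No test was made across tables. Within the RYGB table limma 3.58.1 in R 4.3.3 (trend, robust variances, Benjamini-Hochberg over 10739 genes, threshold 0.05) compared log2(FPKM + 1), with and without the replicate number as a block. The labels do not say that equal numbers pair these samples, so the block is an assumption. Deviations from the group means correlated at 0.85, 0.76 and 0.77 for equal numbers and at -0.59 to -0.13 for others. Deviations of 3 libraries sum to 0, which draws correlations of other numbers below 0. Libraries numbered 1 shared a lane, as did those numbered 2, so lane and pairing cannot be told apart there. FDG-increased columns 1 and 2 of the RYGB table are numbered 2 and 3 in the sham table. P-values of the fit with the block measure the spread of the differences within equal numbers. Those of the fit without it measure the spread between samples. Either spread may be technical. The call rule and the limma fit without the block were tested on simulated data. The fit with the block, which gave the adjusted p-values printed above, was not.

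Of the called genes, those with the widest gap between the nearest libraries, up to 15 in each direction, are named. The text also names the called members of each list described, or where it has none the 2 of highest mean FPKM, and defining genes of region, early response and other tissue; others are said to be chosen after their values were seen. Gene lists (42, with 783 genes, 622 compared), the members and this rule were chosen with earlier results of these data known. Alternatives changed the scaling between tables, the pseudocount, the filter, the libraries and the lanes. Of the compared symbols, 9973 were current in the RefSeq gene table. Near-identical gene copies are uncertain, since the handling of shared reads is not given.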

Additional observations from a re-analysis of the deposited data

Results flagged for a closer look

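The FDG-increased column found in the sham table alone enters no comparison above, and its early genes stood above both FDG-decreased and sham ileum. Fos was at 331.6 FPKM in that library, where the highest FDG-decreased library had 35.2 and the highest sham library 57.3 FPKM. Egr1 was at 81.0 FPKM, beside at most 20.4 FPKM in FDG-decreased and 12.4 FPKM in sham ileum. Atf3 was at 80.9 FPKM, beside at most 9.02 and 9.60 FPKM. The library has no replicate of its own that the labels identify, and the difference was not tested.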

How the results depend on the processing

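No paired analysis was possible between FDG-decreased and sham ileum because their values carry no test and their numbers do not pair them. Between the RYGB groups limma called 0 genes without and 122 with the replicate block, 1 without FDG-decreased replicate 1, and 0 without each other replicate, with the other pseudocount, without the filter and after quantile normalization. With the replicate block the count was 32 with no filter on low values, which tests more genes, and 39 to 370 with each number left out; after quantile normalization and with the other pseudocount it stayed within 1.5 times. Of the calls against sham (25 higher, 14 lower), the higher count was 15 at the same median and 14 after quantile normalization, and the lower count was 31 with a pseudocount of 0.1, which weights low genes more. Leaving out 1 replicate gave 18 to 303 higher and 20 to 38 lower calls. The most higher calls came without FDG-decreased replicate 3 and the most lower calls without sham replicate 1. Without sham replicate 2 the calls were 109 and 34. Lane 7 alone gave 322 and 77, and no overlap alone 368 and 199. Heat shock calls numbered 3 at the same median, 1 after quantile normalization, and 3 to 7 with a replicate left out; adipocyte calls numbered 2 to 8 with a replicate left out. The cause of these shifts was not tested beyond what is said here. For the 39 called genes, 487 of 497 values under the 13 alternatives moved by less than 1 SD, taken from the group with the larger spread. Changes of the filter leave these values as they are. A value within 1 SD can still lose its call, as Dnaja1 did at 0.86 without FDG-decreased replicate 2. Called genes do not overlap, so changes of libraries, pseudocount or filter could not reverse them. None changed direction under the changes of scaling. Without counts, the depth that limits low genes is unknown.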
